A study of Mus musculus with 16 samples.

Results

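The cathepsins are the main proteases of the lysosome, and 10 mouse cathepsin genes were described here: Ctss, Ctsh, Ctsc, Ctsk, Ctse, Ctsl, Ctsb, Ctsd, Ctsa and Ctsz. They were chosen by name, as the genes whose symbol the arrays carried on 15 of 41174 distinct reporters outside the control spots, and all 10 were among the 15399 genes that could be tested. The samples were 16 B16-BL6 melanomas, tumours of a melanoma cell line grown in male C57BL/6J mice of 8 weeks, with 4 tumours in each of 4 groups, and RNA from each tumour was hybridised to a 1-colour Agilent array. In the ALA plus X-ray group, 5-aminolevulinic acid (ALA) was given locally at 50 mg per kg before fractionated irradiation. The X-ray group was irradiated without ALA, the ALA group received 50 mg per kg without irradiation, and the control group received neither. The labels used here do not give the X-ray dose, the number of fractions or the time between the last treatment and collection, so no time after treatment can be attached to a value. The labels describe each array as a tumour preparation from a mouse without an animal number, and the p-values below measure the spread between these preparations.

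Cathepsins are made as inactive precursors, sorted to endosomes and lysosomes and activated there by the acid milieu. Most are cysteine proteases (Ctss, Ctsh, Ctsc, Ctsk, Ctsl, Ctsb and Ctsz), while Ctsd and Ctse are aspartic proteases and Ctsa is a serine carboxypeptidase. Ctsa, Ctsb, Ctsd, Ctsl and Ctsz are found in nearly all cell types, as housekeeping enzymes of protein breakdown. Ctss is known from macrophages, dendritic cells and B cells, where it trims the invariant chain from MHC class II molecules. ALA is the precursor from which cells make protoporphyrin and heme.

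The reporter used for Ctss lay at chr3:95360162-95360221 on the plus strand of mm9, the build of the array annotation. Those of the other cysteine proteases lay at chr9:89970828-89970887 (Ctsh), chr7:95458436-95458495 (Ctsc), chr3:95310647-95310891 (Ctsk), chr13:64465287-64465346 (Ctsl), chr14:63761906-63761965 (Ctsb) and chr2:174253228-174253287 (Ctsz). Those of the aspartic proteases lay at chr7:149561962-149562021 (Ctsd) and chr1:133571935-133571994 (Ctse), and that of Ctsa at chr2:164664789-164664848. All are 60 bases long. The Ctsk reporter and the second Ctsd reporter (chr7:149562628-149562781, minus strand) cover 245 and 154 bases of genome, so each joins sequence from more than 1 exon and reads spliced messenger RNA. These reporters are shown because the Ctsk values rest on the first alone and because the second did not move with the other Ctsd reporter.
Ctsk: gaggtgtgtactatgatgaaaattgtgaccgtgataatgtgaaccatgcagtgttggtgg
Ctsd, second reporter: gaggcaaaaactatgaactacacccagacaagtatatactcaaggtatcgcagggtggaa

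Promoters, taken as 250 bases before to 50 bases after an annotated start (RefSeq, GRCm38), could be matched for 7 of the 10 genes. They were searched on both strands for 4 motifs, whose matches did not overlap each other here: CACGTG, the E-box read by TFEB and MITF; GAAA-NN-GAAA, the core of the interferon-stimulated response element; GAGGAA, the core site of the myeloid factor PU.1; and TTCNNNGAA, a STAT site core. Of 32851 promoters of this length, 7.15% held CACGTG, 3.44% GAAA-NN-GAAA, 28.3% GAGGAA and 8.3% TTCNNNGAA. The Ctss promoter (chr3:95526536-95526835, plus strand) held GAAA-NN-GAAA with its first base 21 bases before the start (position -21) and GAGGAA at -164 and, on the opposite strand as TTCCTC, at 0, the start itself. The Ctsd promoter (chr7:142387778-142388077, minus strand) held CACGTG at -245 and -98, and the later of 2 Ctsa promoters (chr2:164833523-164833822, plus strand) held it at -12 and 5. CACGTG was also in the Ctsl promoter, at -236, and was in none of the Ctss, Ctsc, Ctsk and Ctsz promoters. GAGGAA was also in those of Ctsc and Ctsk, and TTCNNNGAA in that of Ctsc. The sequences below set Ctss, whose signal moved most between groups, beside Ctsd and Ctsa. These were the members called higher after X-ray alone, each by the reporter used and not by its other reporters. Capitals mark the motifs, which are matches of letters and not measured binding sites.
Ctss: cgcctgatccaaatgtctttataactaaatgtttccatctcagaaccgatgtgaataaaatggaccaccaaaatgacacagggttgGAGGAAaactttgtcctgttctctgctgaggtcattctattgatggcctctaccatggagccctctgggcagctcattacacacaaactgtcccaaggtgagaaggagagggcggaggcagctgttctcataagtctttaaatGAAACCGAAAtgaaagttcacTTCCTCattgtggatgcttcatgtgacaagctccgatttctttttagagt
Ctsd: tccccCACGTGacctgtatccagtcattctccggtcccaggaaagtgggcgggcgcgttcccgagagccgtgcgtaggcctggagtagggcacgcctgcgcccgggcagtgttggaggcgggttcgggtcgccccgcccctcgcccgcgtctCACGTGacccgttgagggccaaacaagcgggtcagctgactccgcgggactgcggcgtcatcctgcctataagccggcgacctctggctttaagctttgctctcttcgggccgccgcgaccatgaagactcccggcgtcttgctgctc
Ctsa: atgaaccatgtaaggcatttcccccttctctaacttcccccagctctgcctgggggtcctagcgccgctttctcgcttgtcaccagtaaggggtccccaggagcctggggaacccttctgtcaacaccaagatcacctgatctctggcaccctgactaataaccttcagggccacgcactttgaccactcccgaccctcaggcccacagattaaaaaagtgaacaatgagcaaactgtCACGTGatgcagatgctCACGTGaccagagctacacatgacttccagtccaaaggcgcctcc

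All values are log2 signals after scaling to the 75th percentile of each array, so 0 is the 75th percentile of the spots and a difference of 1 is a 2-fold difference. Values of different genes come from different reporters and are not compared as levels. Before scaling that percentile stood at 366 to 521 on ALA plus X-ray, 224 to 478 on X-ray, 217 to 331 on ALA and 213 to 408 on control arrays, and 44.3% to 53.6% of spots were well above background with 0 saturated. Log2 signals of array pairs correlated at 0.9265 to 0.9816 within ALA plus X-ray, 0.9451 to 0.9807 within X-ray, 0.9701 to 0.9833 within ALA and 0.9667 to 0.9838 within control. Each of 4 slides carried 1 array of each group, with the replicate number as the slide number, and each group always took the same place on its slide, so place and group cannot be told apart. The 9 melanocyte markers averaged 5.21 to 5.62 in ALA plus X-ray, 5.34 to 5.66 in X-ray, 5.33 to 5.48 in ALA and 5.35 to 5.54 in control tumours, so the markers of the labelled tumour type were bright in every group. Skeletal muscle markers varied within groups, with summed linear levels of 1.63 to 1020 in ALA plus X-ray, 2.34 to 35.5 in X-ray, 1.83 to 6.55 in ALA and 1.53 to 348 in control tumours. The first X-ray array stood apart in immune genes: its mean over 30 interferon response genes was 2.41 against a group median of -0.84, and its mean over 18 macrophage and monocyte markers was 1.28 against a group median of -0.73.

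**Figure D1:**
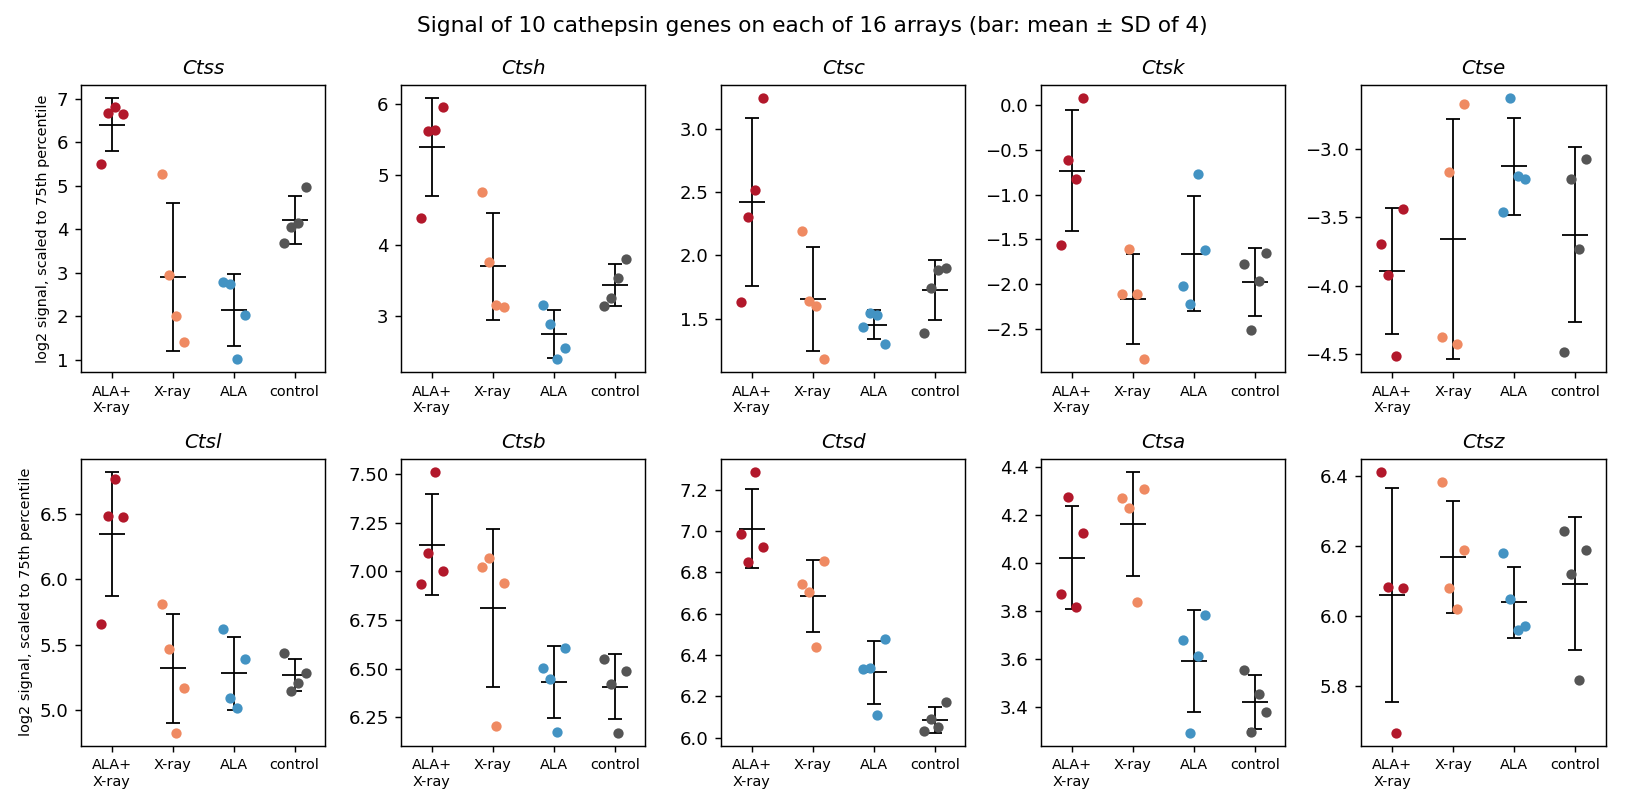
Log2 signal of each of the 10 cathepsins on each array (y axis, scaled to the 75th percentile of the array) in the 4 groups (x axis); points are arrays, ordered by replicate number, and bars are mean ± SD of 4. Ctss ran between 5.50 and 6.82 in ALA plus X-ray tumours, above all other arrays, while Ctsz stayed between 5.67 and 6.41 in every group.

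Ctss, the cathepsin of the MHC class II pathway, had the widest range of the 10 genes. It measured 5.50, 6.67, 6.82 and 6.66 in ALA plus X-ray tumours, 5.27, 2.95, 2.01 and 1.40 in X-ray tumours, 2.79, 2.74, 1.02 and 2.02 in ALA tumours, and 3.69, 4.06, 4.14 and 4.98 in control tumours. Every ALA plus X-ray tumour was above every other tumour, every ALA tumour was below every control tumour, and among X-ray tumours the first was above all controls and the other 3 below all of them. The group means ± SD (n = 4 each) were 6.41 ± 0.61 in ALA plus X-ray, 2.91 ± 1.70 in X-ray, 2.14 ± 0.83 in ALA and 4.22 ± 0.55 in control. The order of the levels was therefore ALA plus X-ray, control, X-ray, ALA. ALA and X-ray, the neighbours at the low end, overlapped, as did X-ray and control. Across all 16 arrays Ctss spanned 5.81 log2 units, the 293rd widest range of the 15399 genes tested, and Ctsz spanned 0.75, the 12868th. In a tumour measured in bulk, fewer cells that carry a transcript and less of it per cell cannot be told apart.

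Ctss was 4.58-fold higher in ALA plus X-ray than in control tumours (log2 difference 2.20 ± 0.67 SE, adjusted p = 0.0299, limma), by 1.82, 2.61, 2.68 and 1.68 within the 4 slides. It was 11.3-fold higher in ALA plus X-ray than in X-ray tumours (3.50 ± 0.67, adjusted p = 0.0328), by 0.23, 3.72, 4.81 and 5.25 within slides. It was 19.3-fold higher in ALA plus X-ray than in ALA tumours (4.27 ± 0.67, adjusted p = 0.00233), by 2.71 to 5.81 within slides. The effect of X-ray differed with and without ALA: the interaction term was 5.58 ± 0.95 (adjusted p = 0.0272), with values of 1.13, 5.04, 7.94 and 8.21 within slides. Against control alone, X-ray gave -1.31 ± 0.67 (95% interval -2.74 to 0.13, adjusted p = 0.275) and ALA gave -2.08 ± 0.67 (-3.51 to -0.64, adjusted p = 0.755), and neither passed. Without the first X-ray array the X-ray difference was -2.09 (adjusted p = 0.0682), the difference of ALA plus X-ray from X-ray was 4.29 (adjusted p = 0.000695) and the interaction was 6.37 (adjusted p = 0.000833).

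The Ctss calls lay near the threshold. That against control did not pass without control 1, 2 or 3 or ALA plus X-ray 2, 3 or 4 (adjusted p up to 0.0785). That against X-ray did not pass without control 2 or 3, ALA 4, X-ray 2, 3 or 4, or ALA plus X-ray 2, 3 or 4 (up to 0.109). The interaction did not pass without control 2, 3 or 4, ALA 3 or 4, X-ray 2, 3 or 4, or ALA plus X-ray 2, 3 or 4 (up to 0.0696), nor with the slide as a block (adjusted p = 0.0582). The log2 values stayed within 2.02 to 2.50, 3.00 to 4.29 and 5.08 to 6.37. The call against ALA passed in all 28 alternatives.

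**Figure D2:**
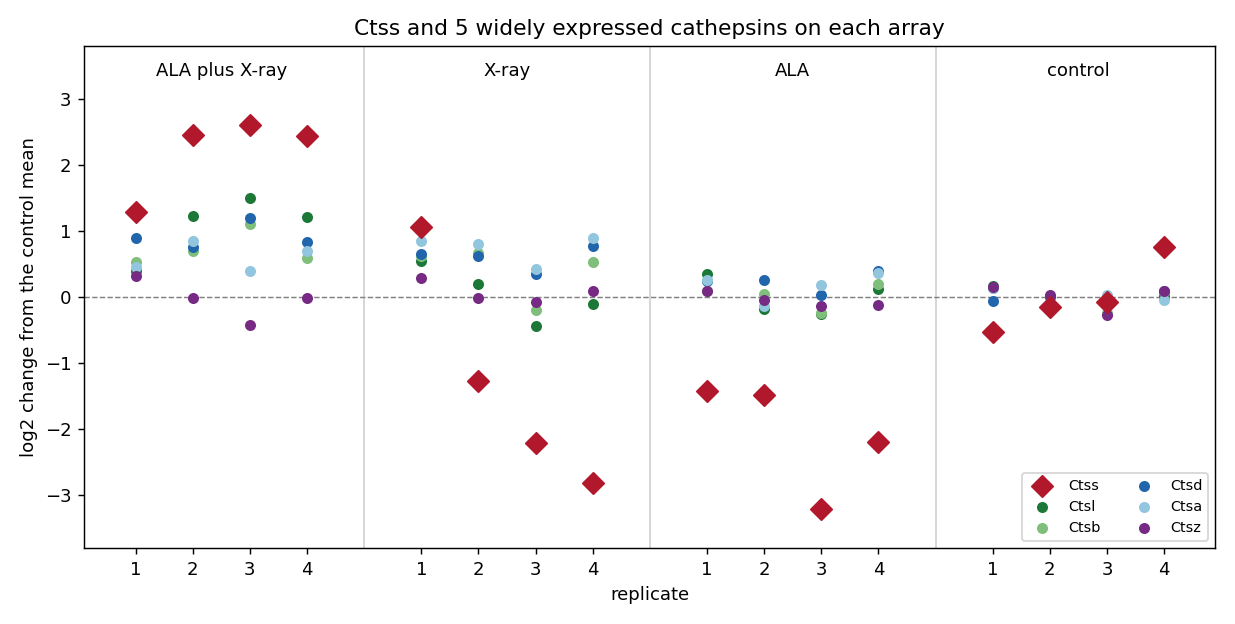
Change of Ctss (diamonds) and of the widely expressed Ctsl, Ctsb, Ctsd, Ctsa and Ctsz (circles) from the gene's control mean in log2 units (y axis) on each array (x axis, replicates 1 to 4 of each group). Ctss was above the mean of the 5 on every ALA plus X-ray array and below it on every ALA array and on X-ray arrays 2 to 4.

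Set against the 5 widely expressed cathepsins, Ctss lay further from its control mean on average in each treated group. Each array's change from the control mean was taken for every gene, and the mean change of Ctsa, Ctsb, Ctsd, Ctsl and Ctsz was 0.66 ± 0.10 in ALA plus X-ray, 0.37 ± 0.25 in X-ray and 0.08 ± 0.15 in ALA tumours (SD, n = 4 each), against 0 ± 0.10 in control tumours. Ctss exceeded that mean by 1.54 ± 0.51 in ALA plus X-ray tumours, lay -1.68 ± 1.57 from it in X-ray and -2.15 ± 0.76 in ALA tumours, and lay 0 ± 0.56 from it in control tumours. In single arrays the gap was 0.77, 1.75, 1.85 and 1.77 in ALA plus X-ray, 0.47, -1.72, -2.22 and -3.25 in X-ray, -1.64, -1.47, -3.12 and -2.39 in ALA, and -0.64, -0.12, 0.04 and 0.72 in control tumours. On X-ray arrays 2, 3 and 4 the mean of the widely expressed genes was 0.46, 0.01 and 0.44 above its control level, while Ctss lay -1.26, -2.21 and -2.81 from its own. No test was made of this gap. The 5 genes were taken as widely expressed from general knowledge and not from these data. Ctsh and Ctsc, with r to Ctss of 0.92 and 0.82 over the arrays, were not among them.

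**Figure D3:**
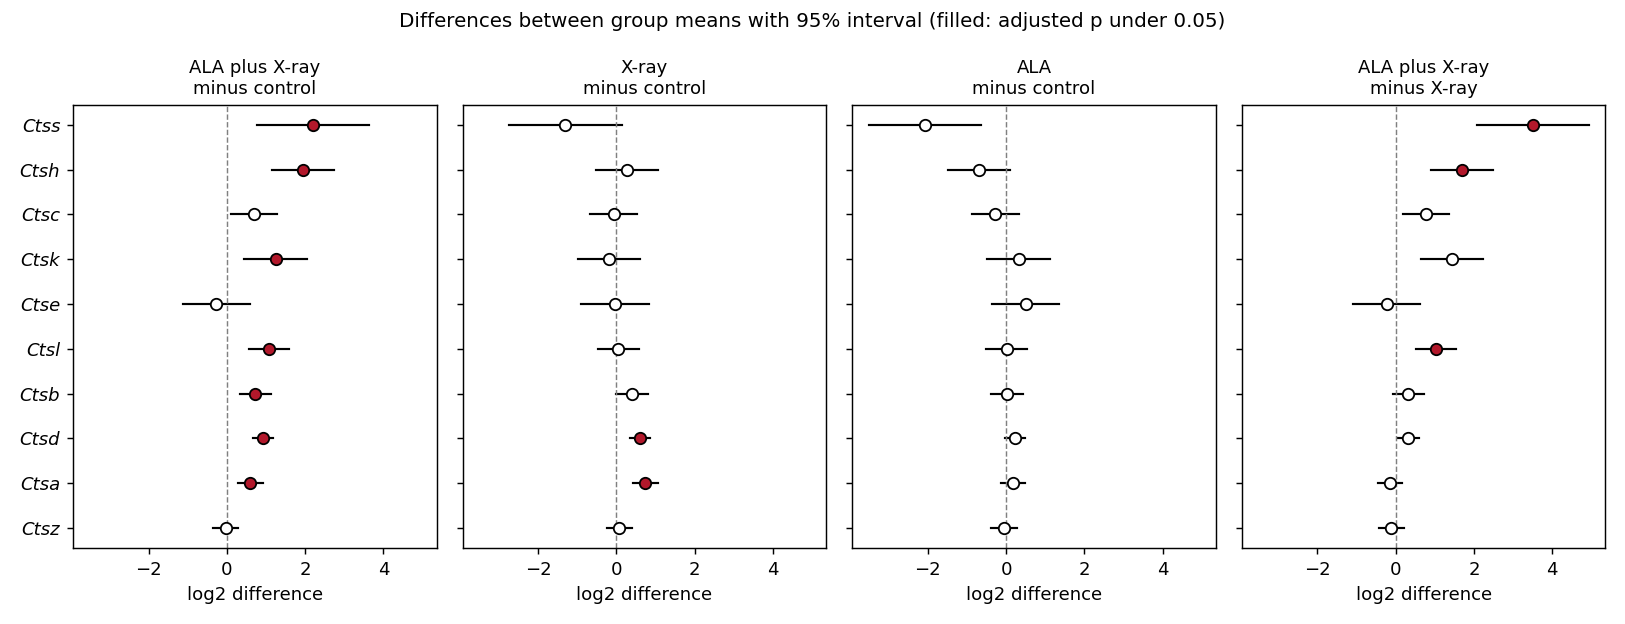
Log2 difference between group means (x axis) for each cathepsin (y axis) in 4 comparisons, with the 95% interval; filled points had an adjusted p under 0.05. The filled points number 7 for ALA plus X-ray minus control, 2 for X-ray minus control, 0 for ALA minus control and 3 for ALA plus X-ray minus X-ray.

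In ALA plus X-ray against control tumours, 7 of the 10 cathepsins passed the threshold and all 7 were higher, while 24.9% of all genes passed in either direction and 9.77% passed as higher. The 7 were Ctss, Ctsh, Ctsk, Ctsl, Ctsd, Ctsb and Ctsa, and for each of them all 4 ALA plus X-ray arrays were above all 4 control arrays. The arrays of 20.6% of all genes did not overlap in this comparison. The median difference was 0.83 over the 10 cathepsins and -0.08 over all genes tested. In ALA plus X-ray against ALA tumours, which shares the ALA plus X-ray arrays, 7 also passed and all were higher (Ctss, Ctsh, Ctsc, Ctsl, Ctsb, Ctsd and Ctsa), against 24.1% of all genes in either direction and 10.7% as higher. The median was 0.82 for the 10 cathepsins and -0.13 for all genes. In both comparisons Ctsd and Ctsa passed by the reporter used and not by their other reporters.

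Between ALA plus X-ray and X-ray tumours, Ctss, Ctsh and Ctsl passed, all higher, against 2.07% of all genes in either direction and 1.3% as higher, with a median of 0.55 over the 10 cathepsins and -0.08 over all genes. The arrays of 2 cathepsins, Ctss and Ctsk, did not overlap here, against 6.4% of all genes. The number of cathepsins that passed was 5 without ALA plus X-ray 1 and 1 without control 4 or ALA 1. It was 0 without control 2 or 3, ALA 4, X-ray 2, 3 or 4, or ALA plus X-ray 2, 3 or 4.

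In X-ray against control tumours Ctsa and Ctsd passed, both higher and both with arrays that did not overlap; 3.37% of all genes passed in either direction, 1.99% passed as higher, and the arrays of 18.3% did not overlap. Ctsa and Ctsd passed by the reporter used and not by their other reporters. The median was 0.06 over the 10 cathepsins and -0.02 over all genes. The number that passed was 1 without control 1 or 3 and 0 without control 2 or 4 or X-ray 1, 2 or 4. In ALA against control tumours limma called 0 cathepsins and 0% of all genes. At an unadjusted p under 0.05 there was 1, Ctss, against 6.24% of all genes. Ctss was also the 1 cathepsin whose arrays did not overlap, against 5.7% of all genes. The medians there were 0.02 over the 10 cathepsins and -0.003 over all genes. The interaction term passed for Ctss and Ctsh, both positive, against 1.23% of all genes in either direction and 0.896% as positive, with medians of 0.66 over the 10 cathepsins and -0.10 over all genes. The count was 4 without ALA plus X-ray 1, 1 without control 1 or ALA 1, and 0 without control 2, 3 or 4, ALA 3 or 4, X-ray 2, 3 or 4, or ALA plus X-ray 2, 3 or 4.

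Ctsh, an aminopeptidase of the cysteine class that is abundant in lung and in macrophages, was the member most like Ctss. It measured 4.39, 5.61, 5.62 and 5.95 in ALA plus X-ray, 4.76, 3.76, 3.16 and 3.14 in X-ray, 3.16, 2.90, 2.40 and 2.55 in ALA, and 3.15, 3.26, 3.54 and 3.81 in control tumours. All ALA plus X-ray tumours were above all control and all ALA tumours, and the first of them was below the first X-ray tumour. It was 3.87-fold higher in ALA plus X-ray than in control (log2 1.95 ± 0.37, adjusted p = 0.00498), 6.24-fold higher than in ALA (2.64 ± 0.37, adjusted p = 0.00175) and 3.22-fold higher than in X-ray tumours (1.69 ± 0.37, adjusted p = 0.0389). Within slides the difference from X-ray was -0.37, 1.85, 2.46 and 2.81. The interaction was 2.38 ± 0.52 (adjusted p = 0.0439). X-ray alone gave 0.26 (95% interval -0.53 to 1.06) and ALA alone -0.69 (-1.48 to 0.10) against control; without the first X-ray array the X-ray value was -0.09. The call against X-ray was lost without control 2, 3 or 4, ALA 1 or 4, X-ray 2, 3 or 4, or ALA plus X-ray 2, 3 or 4 (adjusted p up to 0.120). The interaction was lost without any 1 control array, ALA 1, 3 or 4, X-ray 2, 3 or 4, or ALA plus X-ray 2, 3 or 4 (up to 0.104). With the slide as a block, the call against X-ray had an adjusted p of 0.0554 and the interaction of 0.0766, and over all alternatives they passed in 14 and 11 of 28. The calls against control and ALA passed in all 28 alternatives.

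Ctsc, a dipeptidyl peptidase that activates the granule serine proteases of leukocytes, measured 1.63, 2.30, 2.52 and 3.25 in ALA plus X-ray, 2.19, 1.64, 1.60 and 1.18 in X-ray, 1.43, 1.55, 1.53 and 1.30 in ALA, and 1.38, 1.75, 1.88 and 1.90 in control tumours. The first ALA plus X-ray tumour lay among the controls and the other 3 above them. The difference from control was 0.70 ± 0.28 (adjusted p = 0.0777) and did not pass, whereas that from ALA was 0.97 ± 0.28 (adjusted p = 0.0232) and passed, with arrays that did not overlap. That call was lost without ALA 1 or 4 or ALA plus X-ray 3 or 4 (adjusted p up to 0.0604).

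Ctsk, the collagen-cleaving protease of osteoclasts that fibroblasts also make, was dim but well above background on all 16 arrays. It measured -1.56, -0.62, -0.83 and 0.08 in ALA plus X-ray, -2.11, -1.61, -2.11 and -2.84 in X-ray, -2.02, -2.22, -0.77 and -1.62 in ALA, and -1.78, -2.52, -1.97 and -1.65 in control tumours. The ALA plus X-ray tumours were above all control and all X-ray tumours and overlapped with the ALA tumours. It was 2.37-fold higher than in control (log2 1.25 ± 0.37, adjusted p = 0.0275), a call that was lost without control 2 or ALA plus X-ray 2, 3 or 4 (adjusted p up to 0.0845) and under normexp background correction, where the value was 0.58 (adjusted p = 0.0632). It was also lost without a filter on dim reporters (adjusted p = 0.0516) and in the fit of the arrays compared alone (0.0523), and passed in 21 of 28 alternatives. The difference from X-ray was 1.44 ± 0.37 (adjusted p = 0.057) and that from ALA 0.93 ± 0.37 (adjusted p = 0.0805). The X-ray and ALA differences from control were -0.19 (95% interval -0.99 to 0.60) and 0.32 (-0.48 to 1.11).

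The 13 fibroblast and matrix markers had summed levels, on the linear scale relative to the 75th percentile, of 67.0 to 450 in ALA plus X-ray, 35.3 to 78.1 in X-ray, 20.9 to 112 in ALA and 34.1 to 117 in control tumours, and 2 of 13, Col5a1 and Mmp2, passed as higher against control. Against ALA 9 of 13 passed as higher, and against X-ray 0. Among all genes, 9.77% passed as higher against control, 10.7% against ALA and 1.3% against X-ray. Of 8 osteoclast markers, 5 could be tested and 0 passed in ALA plus X-ray against control. Their summed levels were 0.588 to 1.36 in ALA plus X-ray, 0.320 to 0.756 in X-ray, 0.499 to 0.665 in ALA and 0.406 to 0.912 in control tumours. Acp5 passed as higher against X-ray, against ALA and in the interaction, and Tnfrsf11a against ALA. Calcr, Dcstamp and Atp6v0d2 were below the filter. The part of these cells in the Ctsk values was not tested. Genes were also ranked by likeness to Ctsk, leaving out the members and clone, predicted and accession names. The 4 genes whose pattern was most like Ctsk over the 16 arrays by Pearson r were Slc35d2 (0.86), Pou3f1 (0.85), Ednra (0.84) and the matrix proteoglycan gene Lum (0.83).

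Ctse, an aspartic protease best known from stomach and some immune cells, was well above background on 1 of 4 ALA plus X-ray, 2 of 4 X-ray, 3 of 4 ALA and 3 of 4 control arrays. It ran from -4.51 to -3.44 in ALA plus X-ray, -4.42 to -2.67 in X-ray, -3.46 to -2.63 in ALA and -4.48 to -3.07 in control tumours, and the groups overlapped. None of its differences passed in the 6 comparisons, and the difference of ALA plus X-ray from control was -0.27 (95% interval -1.13 to 0.60).

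Ctsl, a broad cysteine endopeptidase, measured 5.66, 6.49, 6.77 and 6.48 in ALA plus X-ray, 5.81, 5.46, 4.82 and 5.17 in X-ray, 5.62, 5.09, 5.01 and 5.39 in ALA, and 5.43, 5.14, 5.21 and 5.28 in control tumours. The last 3 ALA plus X-ray tumours were above all others, and the first lay below 1 X-ray tumour. Ctsl was 2.12-fold higher in ALA plus X-ray than in control (log2 1.08 ± 0.24, adjusted p = 0.00886), 2.10-fold higher than in ALA (1.07 ± 0.24, adjusted p = 0.00887) and 2.04-fold higher than in X-ray tumours (1.03 ± 0.24, adjusted p = 0.0439). Neither X-ray alone (0.05, 95% interval -0.46 to 0.56) nor ALA alone (0.01, -0.50 to 0.53) differed from control beyond the threshold. The call against X-ray was lost without any 1 control array, ALA 1, 2 or 4, X-ray 2, 3 or 4, or ALA plus X-ray 2, 3 or 4 (adjusted p up to 0.131). It passed in 8 of 28 alternatives in all, and was also lost with the slide as a block (adjusted p = 0.0599) and in the fit of the arrays compared alone (0.228). The calls against control and ALA passed in all 28. By the reporters used, Ctsl was the widely expressed member whose pattern was nearest to Ctss. The second Ctsb reporter, described below, was not part of this ranking.

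Ctsb, a cysteine protease that also trims peptides from the carboxyl end, measured 6.93, 7.10, 7.51 and 7.00 in ALA plus X-ray, 7.02, 7.07, 6.21 and 6.94 in X-ray, 6.51, 6.45, 6.17 and 6.61 in ALA, and 6.55, 6.42, 6.17 and 6.49 in control tumours. All ALA plus X-ray tumours and 3 of 4 X-ray tumours were above all controls. Ctsb was 1.66-fold higher in ALA plus X-ray than in control (log2 0.73 ± 0.19, adjusted p = 0.0158) and 1.63-fold higher than in ALA tumours (0.70 ± 0.19, adjusted p = 0.0187). X-ray against control gave 0.40 ± 0.19 (adjusted p = 0.232). The call against ALA was lost without ALA 3 or ALA plus X-ray 3 (adjusted p up to 0.0572), and that against control passed in all 28 alternatives.

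Ctsd, the main aspartic protease of lysosomes, measured 6.98, 6.85, 7.29 and 6.92 in ALA plus X-ray, 6.74, 6.70, 6.44 and 6.85 in X-ray, 6.33, 6.34, 6.11 and 6.48 in ALA, and 6.03, 6.09, 6.05 and 6.17 in control tumours. Both irradiated groups were above all controls. Ctsd was 1.90-fold higher in ALA plus X-ray (log2 0.93 ± 0.12, adjusted p = 0.00145) and 1.52-fold higher in X-ray tumours (0.60 ± 0.12, adjusted p = 0.0273) than in control, and 1.62-fold higher in ALA plus X-ray than in ALA tumours (0.70 ± 0.12, adjusted p = 0.00341). ALA plus X-ray against X-ray gave 0.33 ± 0.12 (adjusted p = 0.144). The X-ray call was lost without any 1 control array or without X-ray 1, 2 or 4 (adjusted p up to 0.0834). These values are from the reporter used. The second Ctsd reporter, described below, gave 0.03 for ALA plus X-ray and 0.06 for X-ray against control, and neither passed.

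Ctsa, the protective protein that stabilises beta-galactosidase and neuraminidase in the lysosome, measured 3.87, 4.28, 3.82 and 4.13 in ALA plus X-ray, 4.27, 4.23, 3.84 and 4.31 in X-ray, 3.68, 3.29, 3.61 and 3.78 in ALA, and 3.56, 3.30, 3.46 and 3.38 in control tumours. Both irradiated groups were above all controls and overlapped each other. Ctsa was 1.67-fold higher in X-ray (log2 0.74 ± 0.15, adjusted p = 0.0243) and 1.52-fold higher in ALA plus X-ray tumours (0.60 ± 0.15, adjusted p = 0.0124) than in control, and ALA plus X-ray against X-ray gave -0.14 (95% interval -0.45 to 0.17). The call of X-ray against control was lost without control 2 or 4 or X-ray 1, 2 or 4 (adjusted p up to 0.0834). ALA plus X-ray against ALA gave 0.43 ± 0.15 (adjusted p = 0.0451), a call that passed in 11 of 28 alternatives. These calls are from the reporter used, and the other Ctsa reporters, described below, passed in none of these comparisons.

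Ctsz, a carboxypeptidase, ran from 5.67 to 6.41 in ALA plus X-ray, 6.02 to 6.38 in X-ray, 5.96 to 6.18 in ALA and 5.82 to 6.24 in control tumours. The groups overlapped in all comparisons. ALA plus X-ray against control gave -0.03 (95% interval -0.35 to 0.29), X-ray against control 0.08 (-0.25 to 0.40) and ALA against control -0.05 (-0.38 to 0.27), and the sign of the first differed among settings.

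**Figure D4:**
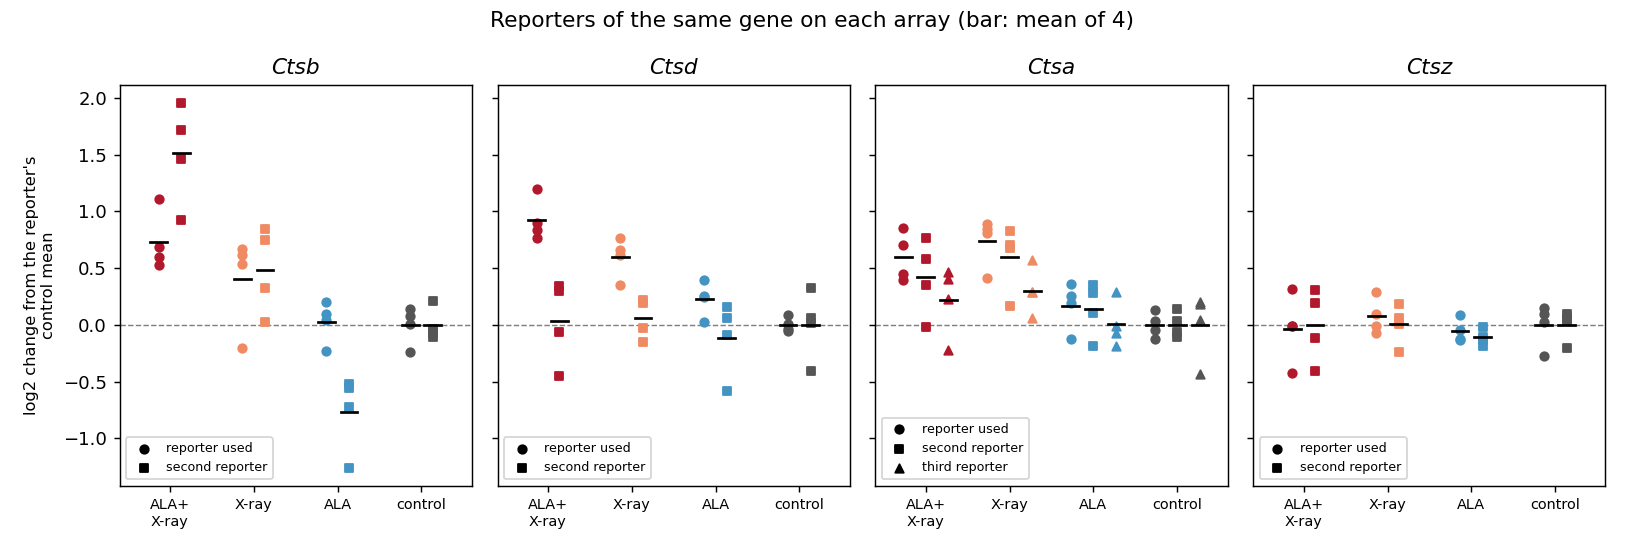
Log2 change of each reporter of Ctsb, Ctsd, Ctsa and Ctsz from its own control mean (y axis) on each array of the 4 groups (x axis); shapes are reporters of the same gene and bars are means of 4. The second Ctsd reporter averaged 0.03 in ALA plus X-ray, 0.06 in X-ray and -0.11 in ALA tumours, and the second Ctsb reporter moved further than the first.

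For 4 genes the array carried several reporters, and for Ctsb, Ctsd and Ctsa they did not all give the same calls. The second Ctsd reporter, the spliced sequence shown above, measured 4.59, 4.55, 3.79 and 4.18 in ALA plus X-ray, 4.44, 4.47, 4.22 and 4.10 in X-ray, 4.31, 4.16, 3.66 and 4.41 in ALA, and 4.57, 4.26, 3.84 and 4.31 in control tumours. Its groups overlapped, and its difference was 0.03 ± 0.21 for ALA plus X-ray (adjusted p = 0.925) and 0.06 ± 0.21 for X-ray (adjusted p = 0.904) against control, where the reporter used gave 0.93 and 0.60. With the mean of both reporters, Ctsd gave 0.48 for ALA plus X-ray and 0.33 for X-ray against control, of which the first still passed. The second Ctsb reporter was dim and measured -1.12, -0.09, -0.33 and -0.58 in ALA plus X-ray, -1.20, -1.30, -2.02 and -1.72 in X-ray, -2.57, -2.77, -3.30 and -2.60 in ALA, and -2.15, -1.84, -2.11 and -2.08 in control tumours. Here all ALA plus X-ray tumours were above all others and all ALA tumours below all others. Its difference was 1.51 ± 0.24 for ALA plus X-ray against control (adjusted p = 0.00235), 1.03 ± 0.24 against X-ray (adjusted p = 0.0475) and -0.77 ± 0.24 for ALA against control (adjusted p = 0.697), and its interaction of 1.79 ± 0.33 passed (adjusted p = 0.0302). The Ctsb reporter used gave 0.03 for ALA against control and an interaction of 0.30, and neither passed. The 3 Ctsa reporters gave 0.60, 0.42 and 0.22 for ALA plus X-ray against control, of which only the first passed, and their mean gave 0.41 (adjusted p = 0.0539). For X-ray against control the 3 reporters gave 0.74, 0.59 (adjusted p = 0.0902, limma) and 0.30 (adjusted p = 0.378), and again only the first passed. The Ctsz reporters gave -0.03 and -0.01. The adjusted p of these reporters is over the 21632 reporters that passed the filter. Which transcripts each reporter reads was not tested.

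**Figure D5:**
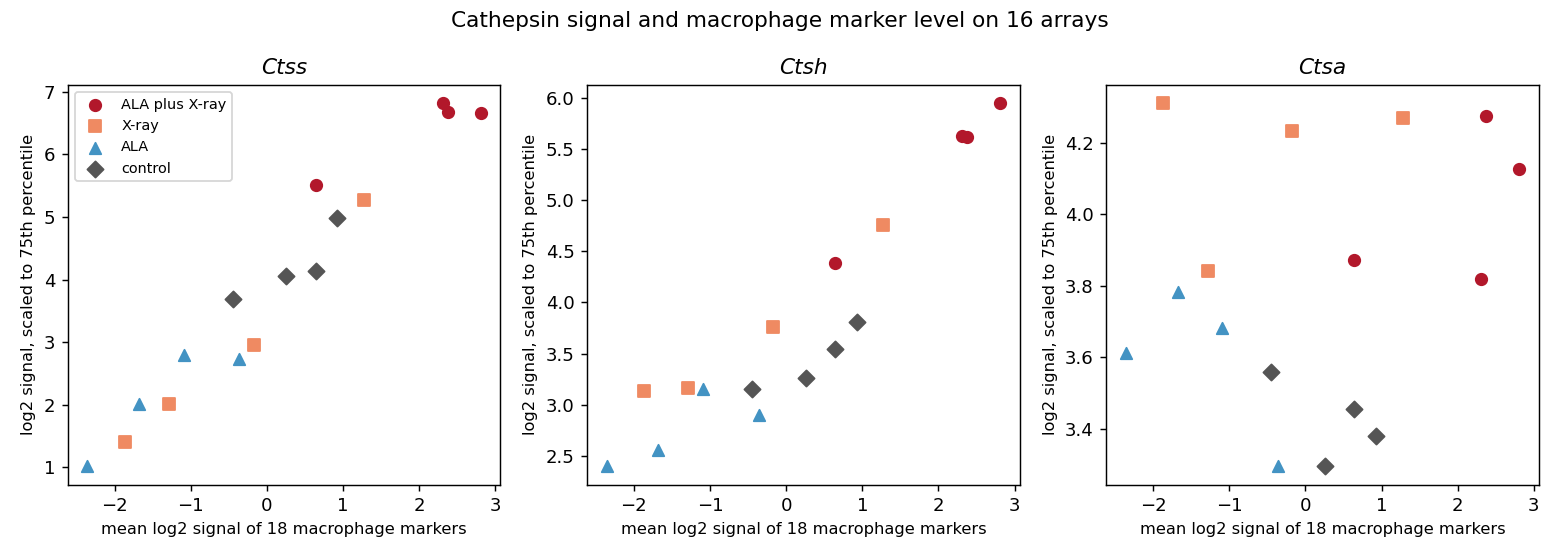
Log2 signal of Ctss, Ctsh and Ctsa (y axes) against the mean log2 signal of 18 macrophage and monocyte markers (x axis) on the 16 arrays, with the group as colour and shape. Ctss and Ctsh were high where the markers were high, while Ctsa was high in both irradiated groups, at marker levels from -1.86 to 2.81.

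Genes were ranked by likeness to Ctss, leaving out the members and clone, predicted and accession names. The genes most like Ctss over the 16 arrays by Pearson r were Mpeg1 (0.99), Cd300c2 (0.99), Tyrobp (0.98), Lair1 (0.98), Trem2 (0.98), Lyz2 (0.98), Rgs2 (0.98) and Lpxn (0.98). Most of them are known from macrophages, such as Mpeg1, which encodes perforin-2, and Lyz2, which encodes lysozyme. After subtraction of group means these r were 0.92 to 0.98. The 16 arrays share the 4 treatment groups and the 4 slides, so these values describe the arrays and carry no test. Among the members, r to Ctss was 0.92 for Ctsh, 0.83 for Ctsl, 0.82 for Ctsc, 0.62 for Ctsb, 0.53 for Ctsk, 0.51 for Ctsd, 0.20 for Ctsa, 0.02 for Ctsz and -0.44 for Ctse. After subtraction of group means it was 0.90 for Ctsh, 0.70 for Ctsl, 0.63 for Ctsc and between -0.24 and 0.44 for the other 6.

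The macrophage and monocyte markers moved with Ctss. Their summed level was 163 to 370 in ALA plus X-ray, 21.7 to 140 in X-ray, 14.3 to 47.9 in ALA and 66.3 to 129 in control tumours, and all 18 could be tested. Of the 18, 7 were higher in ALA plus X-ray than in control (median 1.68 over the 18), 8 higher than in X-ray (2.65) and 17 higher than in ALA (3.55), and 11 passed the interaction (4.37). None passed in X-ray (-0.91) or ALA (-1.69) against control. The shares of all genes called higher were 9.77% against control, 1.3% against X-ray, 10.7% against ALA and 0.896% in the interaction. Adgre1, which encodes the macrophage antigen F4/80, gave 1.69 against control (adjusted p = 0.0966) and 3.14 against X-ray (adjusted p = 0.0431). Csf1r, the macrophage growth factor receptor gene, gave 0.57 (adjusted p = 0.612) and 2.34 (adjusted p = 0.0987). Cd68, a lysosomal membrane gene of macrophages, gave 1.29 (adjusted p = 0.0146) and 1.37 (adjusted p = 0.0473). Of the other cell types known for Ctss, 5 of 9 dendritic cell markers could be tested and 0 passed against control, with summed levels of 1.37 to 2.08 in ALA plus X-ray, 1.00 to 2.11 in X-ray, 1.13 to 1.41 in ALA and 1.18 to 1.73 in control tumours. Against ALA, Itgax was higher (4.08) and Xcr1 lower (-0.99), and Itgax passed the interaction (4.78). Of 7 B and plasma cell markers, 3 could be tested and 0 passed in any comparison. Of 6 testable T and NK cell markers, Gzmb and Nkg7 were higher in ALA plus X-ray than in control (2.92 and 3.53) and than in ALA tumours (3.46 and 4.51). Their summed levels were 0.873 to 5.67 in ALA plus X-ray, 0.349 to 4.60 in X-ray, 0.371 to 0.790 in ALA and 0.378 to 0.779 in control tumours. The 4 testable erythroid markers had summed levels of 23.4 to 54.7 in ALA plus X-ray, 26.1 to 819 in X-ray, 280 to 698 in ALA and 60.1 to 173 in control tumours. Hba-a1, Hbb-bt and Alas2 were lower in ALA plus X-ray than in ALA tumours (-3.49, -3.20 and -4.20), and 0 of 4 passed in the other comparisons. The part of these cell types in the Ctss, Ctsh and Ctsl values was not tested.

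Of 9 testable genes that work with Ctss in MHC class II loading, all 9 had log2 differences above 0 for ALA plus X-ray against each of control, X-ray and ALA, and 0 of 9 for ALA against control. Among all genes, 43.5%, 40.4%, 38.9% and 49.6% were above 0 in these comparisons, in that order. The first X-ray tumour averaged 1.52 over the 9 genes, above every ALA plus X-ray tumour (-0.55 to 1.27). H2-DMb1, a chain of the peptide exchange factor, was the 1 that passed in ALA plus X-ray against control (1.75 ± 0.44, adjusted p = 0.0139). In ALA plus X-ray tumours 6 were higher than in ALA tumours and 0 passed against X-ray. Their median against control was 2.23. As higher, 9.77% of all genes passed against control, 10.7% against ALA and 1.3% against X-ray. Cd74, the invariant chain that Ctss cleaves, gave 2.63 ± 1.07 against control (adjusted p = 0.0845) and 3.90 ± 1.07 against ALA (adjusted p = 0.0203). Ciita, the class II master regulator, gave 1.74 ± 0.94 against control (adjusted p = 0.181), and H2-Ab1, a class II chain, gave 4.24 ± 1.08 against ALA (adjusted p = 0.015).

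Interferon response genes were higher in the group where Ctss was. Of 30, 24 were higher in ALA plus X-ray than in control (median 2.65), among them Ifit1 (3.88), Mx2 (2.70), Ifih1 (2.22) and Oas1a (2.30), and 25 were higher than in ALA (median 2.59), with 2.63 for Oas1a and 2.41 for Ifih1. Over all genes 9.77% were called higher against control and 10.7% against ALA. Between ALA plus X-ray and X-ray 0 of the 30 passed (median 1.36), while Ctss passed with 3.50. Their mean level per array was 0.65 to 1.71 in ALA plus X-ray, -1.24 to 2.41 in X-ray, -1.54 to -0.78 in ALA and -1.74 to -0.44 in control tumours.

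Of 6 other lysosomal proteases that could be tested, 3 were higher in ALA plus X-ray than in control and 0 lower: Ctsf, a cysteine cathepsin (1.64 ± 0.36, adjusted p = 0.00843), Ctso, another cysteine cathepsin (1.23 ± 0.30, adjusted p = 0.0128), and Lgmn, the asparaginyl endopeptidase legumain that processes several cathepsin precursors (1.05 ± 0.21, adjusted p = 0.00562). Ctsf was also higher in X-ray than in control tumours (1.57 ± 0.36, adjusted p = 0.0348), and in ALA plus X-ray against ALA tumours Lgmn (1.11), Ctsf (1.34) and Ctso (1.09) passed. Over all genes, ALA plus X-ray was called higher for 9.77% against control and 10.7% against ALA, and X-ray for 1.99% against control. The 9 others on the list, such as Ctsg of neutrophils and the placental cathepsins, were below the filter.

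Of 10 genes listed as cystatins or other inhibitors of cathepsins, 4 were higher in ALA plus X-ray than in control: Cst6 (2.11 ± 0.30, adjusted p = 0.00183), Cst3, the abundant secreted cystatin C (0.72 ± 0.17, adjusted p = 0.0127), Serpinb6a (0.49 ± 0.15, adjusted p = 0.0284) and Csta2 (1.78 ± 0.57, adjusted p = 0.036). Which cathepsins each of them inhibits was not tested. Cst6 was also higher in X-ray than in control (1.53) and in ALA plus X-ray than in ALA (1.90), and Cst3 was higher in ALA plus X-ray than in ALA (0.85). Cstb, the cytosolic stefin B, gave 0.08 ± 0.15 against control (adjusted p = 0.71). The median of the 10 against control was 0.92. Over all genes, ALA plus X-ray was called higher for 9.77% against control and 10.7% against ALA, and X-ray for 1.99% against control.

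Of 40 other lysosomal hydrolases and cofactors, 11 were higher and 1 lower in ALA plus X-ray than in control (median 0.10), where 9.77% of all genes were called higher. The 4 of smallest p among the higher were Psap, the saposin precursor (0.74), Gm2a, the GM2 activator (1.33), Man2b1, the acid alpha-mannosidase (0.60), and Pla2g15, a lysosomal phospholipase (1.28). The lower was Glb1, the acid beta-galactosidase (-0.61). Against ALA 12 of the 40 were higher, beside 10.7% of all genes, led by Man2b1 (0.80) and Psap (0.75). Against X-ray 3 were higher, beside 1.3% of all genes. They were led by Man2b1 (0.53) and Acp5, the tartrate-resistant acid phosphatase of osteoclasts and macrophages (2.38). Arsa, arylsulfatase A, was the 1 that passed in X-ray against control (0.49), where 1.99% of all genes passed as higher. Ppt1 (0.60), a thioesterase, and Man2b1 (0.73) led the 3 that passed the interaction, beside 0.896% of all genes as positive.

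Of 25 lysosomal membrane and proton pump genes, 2 were higher in ALA plus X-ray than in control (median 0.08), where 9.77% of all genes were called higher. The 2 were Laptm4a (0.63) and Laptm5, which is expressed in blood cells (1.68). Laptm5 was also higher than in X-ray (2.23) and ALA tumours (2.81) and passed the interaction (3.37), and Slc11a1, a metal transporter of phagocytes, was higher than in ALA tumours (1.79). Lamp1, a major lysosomal membrane protein, gave 0.01 ± 0.10 against control (adjusted p = 0.931).

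Of 12 genes for lysosomal sorting and for the TFEB and MITF factors, 3 were higher and 2 lower in ALA plus X-ray than in control. Among all genes, 24.9% passed there in either direction and 9.77% as higher. Higher were Mcoln1, a lysosomal cation channel (0.62), Scarb2, the sorting receptor of beta-glucocerebrosidase (0.58), and Tfec, the myeloid member of the factor family (1.72), which also passed against ALA (2.89), as did Scarb2 (0.58), and in the interaction (3.32). Lower were Tfeb, the master regulator of lysosomal genes (-0.93 ± 0.20, adjusted p = 0.00729), and Mitf, the melanocyte factor of the same family (-0.83 ± 0.23, adjusted p = 0.0214), and Tfeb was also lower than in ALA tumours (-0.80).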

How the data were processed

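Expression was measured in 16 B16-BL6 melanoma preparations, 4 per group, grouped by their titles. Per the file headers, the deposited scanner files hold spot intensity on a linear scale, background-subtracted and detrended by the scanner software, Feature Extraction version 10.7.3.1 (the submitters' processing notes name 9.5.3.1), with quality flags as other values per the file headers. The authors' deposited value table holds quantile-normalised intensity and served as an alternative.

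The log2 processed intensity minus each array's 75th percentile over 43379 non-control spots was used. Reporters well above background on at least 4 of 16 arrays were kept, and the brightest reporter stood for its gene, which left 15399 genes. Group means were fitted over all 16 arrays with limma 3.58.1 (R 4.3.3; 12 residual and 2.35 prior degrees of freedom), and p-values were Benjamini-Hochberg adjusted over all genes in each of 6 comparisons at a threshold of 0.05. The fit was tested on simulated data. Alternatives were normexp background, other scalings and filters, the authors' table, the mean of all reporters, a fit of the 2 groups alone, a block for the slide, trend moderation, array weights and each array left out. The number of arrays limits the precision.

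The members, gene lists and tests were chosen with earlier results of these data known. The genes named are all members, the 4 (ALA plus X-ray against control) or 2 (other comparisons) list genes of smallest p per direction, a fixed set (Lgmn, Cst3, Cstb, Ctsf, Cd74, Ciita, Lamp1, Mitf, Tfeb, Adgre1, Csf1r and Cd68, with 1 more that is not reported here), and the genes most like Ctss and Ctsk. Ctso, Col5a1 and Mmp2 were named after their values were seen, as were the cell type markers outside that set.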

Additional observations from a re-analysis of the deposited data

Results flagged for a closer look

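Of 40 checks of a gene in a group of 4 arrays, 3 found an array apart from the other 3, and chance alone flags about 1 in 20 such groups. Ctss in ALA plus X-ray tumours was lowest on array 1 (5.50 against 6.66 to 6.82), a gap of 0.874 of the group's range. Ctsb in X-ray tumours was lowest on array 3 (6.21 against 6.94 to 7.07; 0.847 of the range), and so was Ctsa (3.84 against 4.23 to 4.31; 0.832 of the range). The X-ray effect differed with and without ALA by the interaction term for Ctss (5.579 log2 units, adjusted p = 0.0272, limma) and for Ctsh (2.377, adjusted p = 0.0439).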

How the results depend on the processing

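Over 28 alternatives no called value changed sign. Of Ctss, the difference of ALA plus X-ray from control was 2.20 without a filter on dim reporters (adjusted p = 0.0535, limma) and 2.02 to 2.50 with 1 array left out; that from X-ray was 3.50 without a filter (adjusted p = 0.0505) and when only the arrays compared were fitted (adjusted p = 0.206), and 3.00 to 4.29 with 1 array left out. Its interaction was 5.58 with the slide as a replicate block (adjusted p = 0.0582) and 5.08 to 6.37 with 1 array left out. Deviations of samples with the same number, which is the slide, correlated above 0.1 in 9 of 24 pairs (-0.461 to 0.54). They did so on 3 of 4 slides between ALA plus X-ray and control (0.0877 to 0.54), but in no pair of groups on every slide. The reported fit therefore left the slide out, although each slide held 1 array of each group. With the slide as a block, the interaction had 8 calls over all genes, against 189 as reported. The calls were 4147 in ALA plus X-ray against control (3828), 489 in X-ray against control (519), 322 between ALA plus X-ray and X-ray (318) and 4102 against ALA (3713). The cathepsins called between ALA plus X-ray and X-ray were 3, against 0 without a filter or with only the arrays compared, 1 with the block, 5 with array weights and 0 to 5 with 1 array left out. In X-ray against control they were 2, against 0 with median scaling, without a filter or with the mean of all reporters, and 0 to 3 with 1 array left out. In the interaction they were 2, against 1 with the percentile over spots well above background, with the authors' table or without a filter, 0 with the block, 4 with array weights and 0 to 4 with 1 array left out. The cause of these moves was not tested. Median scaling put the median of all genes in ALA against control at -0.12, against -0.003, and the higher calls at 27 of 28 in X-ray against control (307 of 519 otherwise), 206 of 243 between ALA plus X-ray and X-ray (200 of 318), 1360 of 1896 against ALA (1649 of 3713) and 241 of 273 in the interaction (138 of 189). Over all genes and alternatives the calls ran from 1603 to 6442 in ALA plus X-ray against control (3828 as reported), 1 to 2963 in X-ray against control (519), 0 to 40 in ALA against control (0), 1 to 3135 between ALA plus X-ray and X-ray (318), 1589 to 6438 against ALA (3713) and 1 to 2023 in the interaction (189).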
